A study of Mus musculus with 35 samples.

Results

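The set comprised 7 mouse genes for enzymes that consume, make or phosphorylate NAD: Cd38, Bst1, Nampt, Nadk, Nadk2, Parp1 and Parp14. They were taken by gene symbol, whatever their values, from 32285 gene rows in the lactate experiment, 32285 in the technique comparison and 35624 in the AZD3965 experiment. All 7 had a row in each table, and their counts were read in all 35 cells.

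The cells were primary peritoneal macrophages of male C57BL/6 mice aged 6 months, kept in culture as adherent cells, each sequenced as its own SMART-seq2 library. The lactate experiment held 8 cells treated with 10 mM lactate for 72 h and 8 control cells. The AZD3965 experiment held 5 cells given 10 mM lactate together with 300 nM AZD3965, an inhibitor of the lactate transporter MCT1 (lactate+AZD), and 5 given lactate alone. The method under study, scMeT-seq, draws a little cytoplasm through a nano-capillary for mass spectrometry and then lyses the rest of the cell for RNA. By the study's account the cells of both experiments went through it. The technique comparison set 4 lactate-treated cells handled by scMeT-seq against 3 lactate-treated cells and 2 control cells that were lysed whole. Which animal or culture a cell came from is not in the labels. Each group was therefore treated as 1 sample, with no test and no replicate check of any difference.

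NAD carries electrons in glycolysis and respiration, and its oxidized form is the electron acceptor when lactate dehydrogenase turns lactate into pyruvate. Cells also spend NAD: CD38 and its relative BST1 cleave it to ADP-ribose, cyclic ADP-ribose and nicotinamide, and the PARP enzymes transfer its ADP-ribose onto proteins. NAMPT starts the recycling of the released nicotinamide, and NAD kinases phosphorylate NAD to NADP. In mouse macrophages CD38 is known as an ectoenzyme that increases with inflammatory stimulation.

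Cd38 and Bst1 were neighbours on chromosome 5 (mm10, GENCODE M21), both on the plus strand, with Bst1 from 43818885 to 43843986, Cd38 from 43868553 to 43912375 and 24.6 kb between them. Nampt lay on chromosome 12 (32819545 to 32853349), Nadk on chromosome 4 (155562378 to 155591001), Nadk2 on chromosome 15 (9071260 to 9110891), Parp1 on chromosome 1 (180568924 to 180601254) and Parp14 on the minus strand of chromosome 16 (35832874 to 35871544). Exons of Bst1 overlapped those of Fbxl5 on the opposite strand, so reads in that stretch could not be told apart without strand. Exons of Parp14 overlapped those of the predicted gene Gm49730, and exons of Parp1 those of the microRNA gene Mir6904. Both lie on the same strand as the member, so strand could not tell such reads apart. Of the 50-base windows of the longest transcript, 1.43% in Cd38, 0.78% in Bst1 and 0.84% in Parp14 also occurred in another gene. No such window was shared in Nampt, Nadk, Nadk2 or Parp1.

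RefSeq promoters (GRCm38.p6, 250 bases before to 50 after the start) were matched for 4 of the 7 members. The 2 shown are the lowest and the highest in CpG content among these, with each CG dinucleotide in capitals. Both are on the plus strand, Cd38 at chr5:43868559-43868858 and Nampt at chr12:32820085-32820384.
Cd38: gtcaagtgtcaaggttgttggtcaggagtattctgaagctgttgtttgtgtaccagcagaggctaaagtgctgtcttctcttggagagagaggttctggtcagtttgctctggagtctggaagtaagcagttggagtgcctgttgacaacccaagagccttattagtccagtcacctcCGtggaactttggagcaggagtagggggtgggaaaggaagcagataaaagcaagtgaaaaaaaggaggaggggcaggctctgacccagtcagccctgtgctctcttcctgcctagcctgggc
Nampt: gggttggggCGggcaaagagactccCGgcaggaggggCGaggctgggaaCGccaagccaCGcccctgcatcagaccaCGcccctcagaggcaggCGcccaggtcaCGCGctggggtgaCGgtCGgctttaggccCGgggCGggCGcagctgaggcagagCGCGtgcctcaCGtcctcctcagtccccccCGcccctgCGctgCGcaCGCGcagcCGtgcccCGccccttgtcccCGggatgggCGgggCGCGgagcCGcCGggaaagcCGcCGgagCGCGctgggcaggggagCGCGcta
The Cd38 promoter held 1 CG dinucleotide at 51.7% GC, and 14.1% of all 32851 promoters held as few. The Nampt promoter held 36 at 76.3% GC, and 6.2% held as many, against a median of 7. The GC box GGGCGG, searched on both strands, occurred 5 times in Nampt, 4 times in Parp1, once in 1 Nadk promoter and not in Cd38. It was held by 35.7% of all promoters (its core overlaps CG). The letters GAGGAA (1 form of the site bound by PU.1), also searched on both strands, occurred in neither sequence shown, against 28.3% of all promoters. They occurred once in each Nadk promoter and not in Parp1, and other forms of the site were not searched.

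Of the 35 cells, Cd38, Bst1 and Nampt each had at least 1 count in 34 and Nadk in 33. Parp14 was seen in 24 cells, Parp1 in 22 and Nadk2 in 6. Levels are given as CPM, counts scaled to the same total of gene counts per cell, and for comparison between genes as CPM per kb of exon. In lactate-treated cells of the lactate experiment the order of CPM per kb was Cd38 (113), Nadk (79.5), Bst1 (79.0), Nampt (25.5), Parp14 (8.02), Parp1 (5.16) and Nadk2 (0.51). In control cells it was Cd38 (121), Nadk (79.4), Bst1 (55.8), Nampt (30.9), Parp1 (3.92), Parp14 (2.23) and Nadk2 (0.86). Every pair of neighbours in both orders overlapped in its range over cells, and Bst1 exceeded Nampt per kb in 8 of 8 lactate and 6 of 8 control cells.

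Total counts per cell ran from 269393 to 459859 in the lactate experiment, from 494520 to 851417 in the technique comparison and from 58444 to 175450 in the AZD3965 experiment. All 18 macrophage markers had counts in every group. The summed level of 14 fibroblast markers reached at least 10% of that of the macrophage markers in 4 cells. The control cell CTL32 held 50460 CPM of fibroblast markers and 1257 CPM of macrophage markers, which goes against its label, and CTL30 held 9486 and 37880 CPM. Lactic29 (8254 and 43270 CPM) and the lactate+AZD cell W14 (17710 and 29480 CPM) were the others, and W14 also held the highest mesothelial marker sum (2065 CPM). Below the limit, at 7.12%, was W5, a lactate cell of the AZD3965 experiment. It had counts of 7 of 14 fibroblast markers, with 7891 CPM against 110800 CPM of macrophage markers. Of 9 B cell markers in the lactate experiment, all but Ebf1 were at 0 in control cells and all but Ebf1 and Cd79a in lactate cells. The highest B cell marker sums there were 262.9 CPM in CTL30 and 44.1 CPM in Lactic29. For most members and some other genes, results are also given without the cells at or above the 10% limit. Intervals below are exact 95% intervals on summed counts and cover counting error only, as amplified reads were not tagged by molecule.

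In lactate over control cells, Parp14 was the only member past 2-fold. Of the 7 members, all of which had 10 or more counts over both groups, 1 was at least 2-fold higher and 0 were at least 2-fold lower, against 15.1% and 22.0% of 11506 genes. The ranges of the groups overlapped for all 7, as they did for all 11506 genes (0.0% without overlap).

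Cd38, the main NAD-cleaving enzyme of the macrophage surface, spanned 305 to 659 CPM in lactate-treated cells (median 389 CPM) and 37.9 to 993 CPM in control cells (median 517 CPM). Control cells were thus the more spread, with CTL30 and CTL32 at the bottom and CTL34 at the top. The summed CPM was 439 with lactate and 470 in control, a log2 ratio of -0.10 (-0.21 to 0.01). Without the 3 cells with fibroblast markers this became -0.54, CTL30 and CTL32 being at 37.9 and 38.8 CPM and the other 6 control cells at 406 CPM and above. Without CTL34 it was 0.13.

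Bst1, which encodes the CD157 antigen, ran from 164 to 515 CPM with lactate (median 244 CPM) and from 0 to 494 CPM in control (median 148 CPM). Its summed level was 262 CPM with lactate and 185 CPM in control, a log2 ratio of 0.50 (0.34 to 0.66), and it ran from 0.30 without Lactic27 to 0.86 without CTL34. The only control cell without a Bst1 count was CTL32. Without the 3 cells with fibroblast markers the ratio was 0.26.

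Weighed per kb, Cd38 exceeded its neighbour Bst1 in 6 of 8 lactate and 7 of 8 control cells. The share of Cd38 in the pair per kb had a median of 58.8% with lactate (36.3 to 76.8%) and of 70.9% in control (25.2 to 100.0%). Across the 16 cells the Spearman correlation of Cd38 and Bst1 was 0.08, with -0.52 over the 8 lactate and 0.62 over the 8 control cells, and -0.35 over the 13 cells without fibroblast markers. These are descriptions over cells that share library preparation. The correlation with the macrophage marker sum was 0.86 for Cd38 and 0.76 for Bst1 over the control cells, but 0.19 and 0.38 over those 13 cells.

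Nampt, the rate-limiting enzyme of nicotinamide recycling, was nearly absent from a few cells. With lactate it ranged from 2.44 CPM in Lactic28 and 3.46 CPM in Lactic31, 1 count each, to 254 CPM in Lactic33, with a median of 126 CPM. In control it ranged from 0 in CTL30 and 30.4 CPM in CTL32 to 276 CPM in CTL34, with a median of 200 CPM. Lactic28 and Lactic31 carried no fibroblast signal at the 10% limit and held 354 and 318 CPM of Cd38. The summed level was 129 CPM with lactate and 156 CPM in control, a log2 ratio of -0.28 (-0.48 to -0.08), and -0.64 without the cells with fibroblast markers.

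The NAD kinases stood far apart in level, Nadk next after Cd38 and Nadk2 last of the members per kb. Nadk, the cytosolic kinase, had 83.0 to 451 CPM with lactate (median 322 CPM) and 58.1 to 635 CPM in control (median 271 CPM). Its summed levels were 298 CPM with lactate and 297 CPM in control, a log2 ratio of 0.00 (-0.13 to 0.14), and -0.34 without the 3 cells with fibroblast markers. Nadk2, the mitochondrial kinase, had counts in 2 of 8 lactate cells (Lactic32 at 6.52 and Lactic34 at 14.3 CPM) and in 2 of 8 control cells (CTL30 at 12.6 and CTL33 at 18.3 CPM). With 8 and 13 counts in all, its log2 ratio of -0.75 (-2.22 to 0.63) could not be resolved at this depth.

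Parp1, the nuclear poly-ADP-ribose polymerase that responds to DNA breaks, was seen in 6 of 8 lactate and 5 of 8 control cells. With lactate the lowest, median and highest cells were at 0, 15.6 and 93.0 CPM, and in control at 0, 4.01 and 80.3 CPM. The highest cell of each group, Lactic29 and CTL32, was a cell with fibroblast markers, whose part in these levels was not tested. The log2 ratio was 0.40 (-0.10 to 0.90), and -0.28 without Lactic29 but 1.14 without CTL32. Without all 3 cells with fibroblast markers it was 0.27.

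Parp14, a macrodomain enzyme that adds single ADP-ribose units and is known as an interferon-induced gene, was detected in 7 of 8 lactate and 4 of 8 control cells. Lactate-treated cells 27 to 34 held 196, 166, 22.0, 11.9, 0, 82.6, 44.2 and 54.5 CPM. Control cells with a count held 26.7 (CTL28), 35.7 (CTL31), 43.5 (CTL33) and 52.2 CPM (CTL35), and CTL27, CTL30, CTL32 and CTL34 held 0. The groups overlapped, but 4 lactate cells lay above the highest control cell. Summed over cells this was 74.7 CPM with lactate (227 counts) and 20.7 CPM in control (61 counts), a log2 ratio of 1.85 (1.44 to 2.28). With 1 cell left out it ran from 1.5 (without Lactic27) to 2.16 (without CTL33), and without the cells with fibroblast markers it was 1.57. Thinned to 269393 counts, the expected number of cells with a count was 7.0 with lactate and 4.0 in control.

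**Figure D1:**
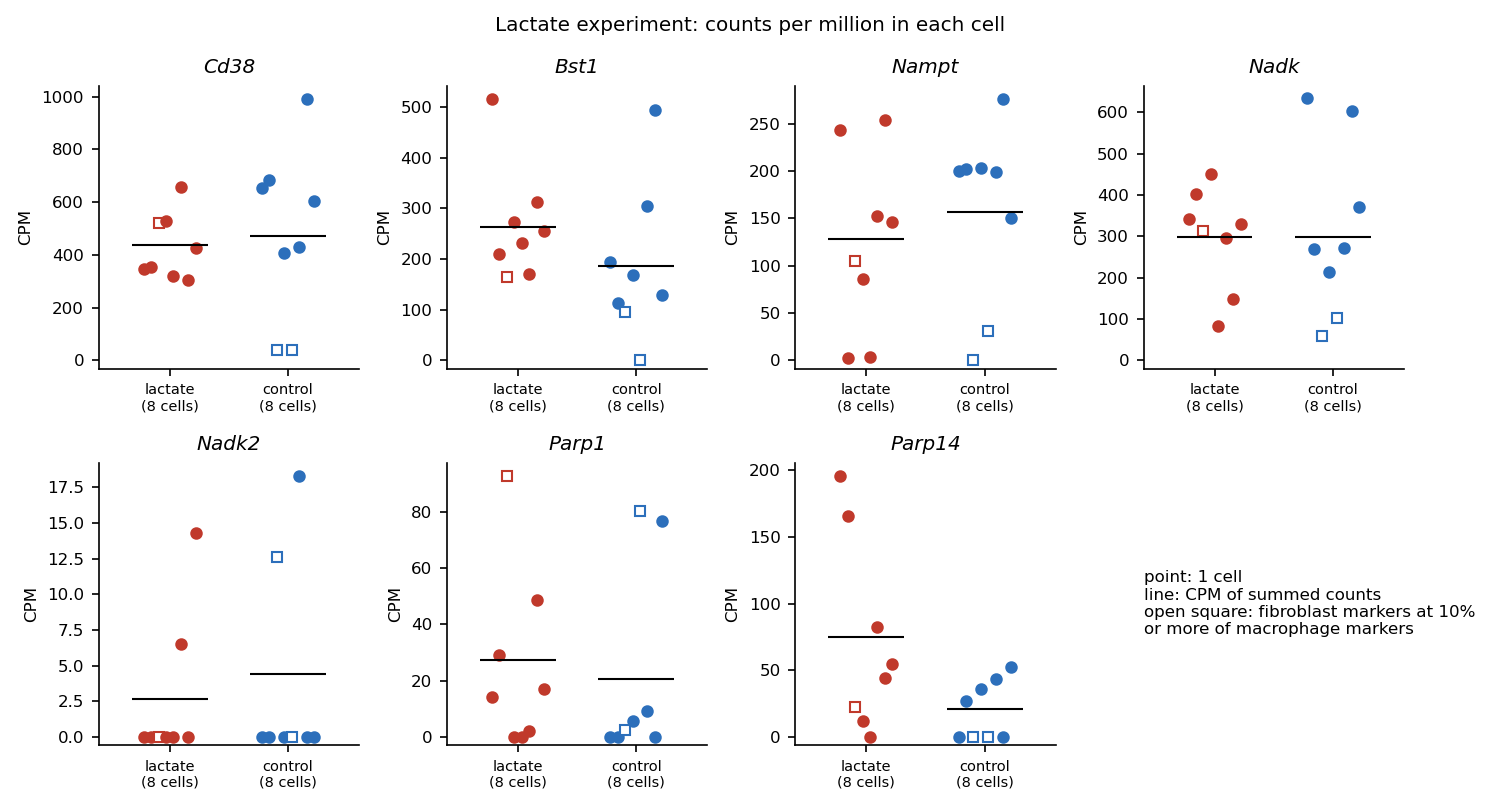
CPM of each member in single cells of the lactate experiment, lactate (8 cells, left) and control (8 cells, right). Points are cells, lines mark the CPM of the summed counts and open squares are cells with fibroblast markers. Parp14 reached 196 CPM with lactate and 52.2 CPM in control, and the groups overlap for all 7 members.

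Over the wider NAD network the counts leaned to the lower side, as they did over all genes. Of 66 genes in the lists, the members included, 57 were measured, of which 5 were at least 2-fold higher (8.77%, against 15.1% of all genes) and 16 at least 2-fold lower (28.1%, against 22.0%). The median log2 ratio was -0.26, against -0.09 over all genes. With the median of per-cell CPM in place of sums the counts were 9 higher and 8 lower. No share of all genes is given for that setting, so these counts were not set against one. Of the 20 calls other than that of Parp14, 11 ended when a single cell was left out.

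Of all genes 22.0% were lower and 15.1% higher, and the salvage list held 3 of 6 measured genes at least 2-fold lower and 0 higher. They were Nmrk1, the nicotinamide riboside kinase, with 13 against 51 counts (log2 ratio -2.02, -3.02 to -1.12), Nmnat1, the nuclear adenylyltransferase that completes NAD, with 7 against 43 counts (-2.67, -4.06 to -1.50), and Nmnat2 with 0 against 12 counts, at least 4.13-fold lower. Single control cells held 38 counts of Nmnat1 (CTL31), 25 of Nmrk1 (CTL30) and 10 of Nmnat2 (CTL32). Without CTL31 Nmnat1 was at 0.25, without CTL30 Nmrk1 was at -1.25, and without CTL32 Nmnat2 had no fold left to give. Without the 3 cells with fibroblast markers the list held 2 lower genes of 5. In de novo and Preiss-Handler synthesis 1 of 5 was higher and 3 were lower. Afmid, the formamidase of the kynurenine pathway, had 47 counts against 0, at least 15.2-fold higher, in 4 lactate cells. Lactic29 held 18 of these counts. The bound of 3.92 on the log2 scale became 3.005 without the 3 cells with fibroblast markers. Naprt, which uses nicotinic acid, had 0 counts against 36 in 3 control cells, at least 12.4-fold lower.

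The 16 ADP-ribosyltransferases held 2 higher and 3 lower genes (12.5% and 18.8%, against 15.1% and 22.0% of all genes), with a median log2 ratio of 0.14. Besides Parp14, Parp2, the DNA damage partner of Parp1, was lower at -1.53 (-1.97 to -1.10) with 61 against 170 counts, 92 of which were in CTL27, and was at -0.54 without that cell. Parp3 was at -1.03 (-1.5 to -0.58), and at -0.55 without CTL32, which held 46 of its 123 control counts. Parp10 was at -1.12 (-1.81 to -0.46), and at -0.59 without CTL31. Of 15 measured interferon-stimulated genes, 3 were higher and 3 lower (20.0% each, near the shares of all genes), with a median of -0.20. Parp14 was not on that list.

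Among 5 measured calcium channels that respond to products of CD38, 2 were higher and 1 lower, against 15.1% and 22.0% of all genes. Trpm2, the channel opened by ADP-ribose, was at 1.88 (1.43 to 2.34), and at 1.06 without Lactic32, which held 104 of its 201 lactate counts. Tpcn1, an endolysosomal channel, was at 2.19 (1.24 to 3.28), and at 1.2 without Lactic27. Ryr2 was lower at -3.10 (-4.48 to -1.96), but 57 of its 58 control counts were in CTL35, without which it was at 2.59. Sirt4 and Sirt5, mitochondrial NAD-dependent deacylases, had 3 against 34 and 1 against 37 counts, at -3.55 (-5.90 to -1.88) and -5.26 (-10.6 to -2.69), with 27 of the Sirt4 counts in CTL31 and 19 of the Sirt5 counts in CTL32. Without those cells they were at -1.46 and -4.41. On the cell surface Enpp1, which cleaves NAD and ATP, was at -2.28 (-2.83 to -1.77), and at -1.40 without CTL31. Macrod2, of the list for ADP-ribose removal, was at -2.04 (-2.56 to -1.54). CTL30 held 148 of its 167 control counts, and without CTL30 it was at 0.89. Without the 3 cells with fibroblast markers 6 network genes were higher and 15 lower.

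**Figure D2:**
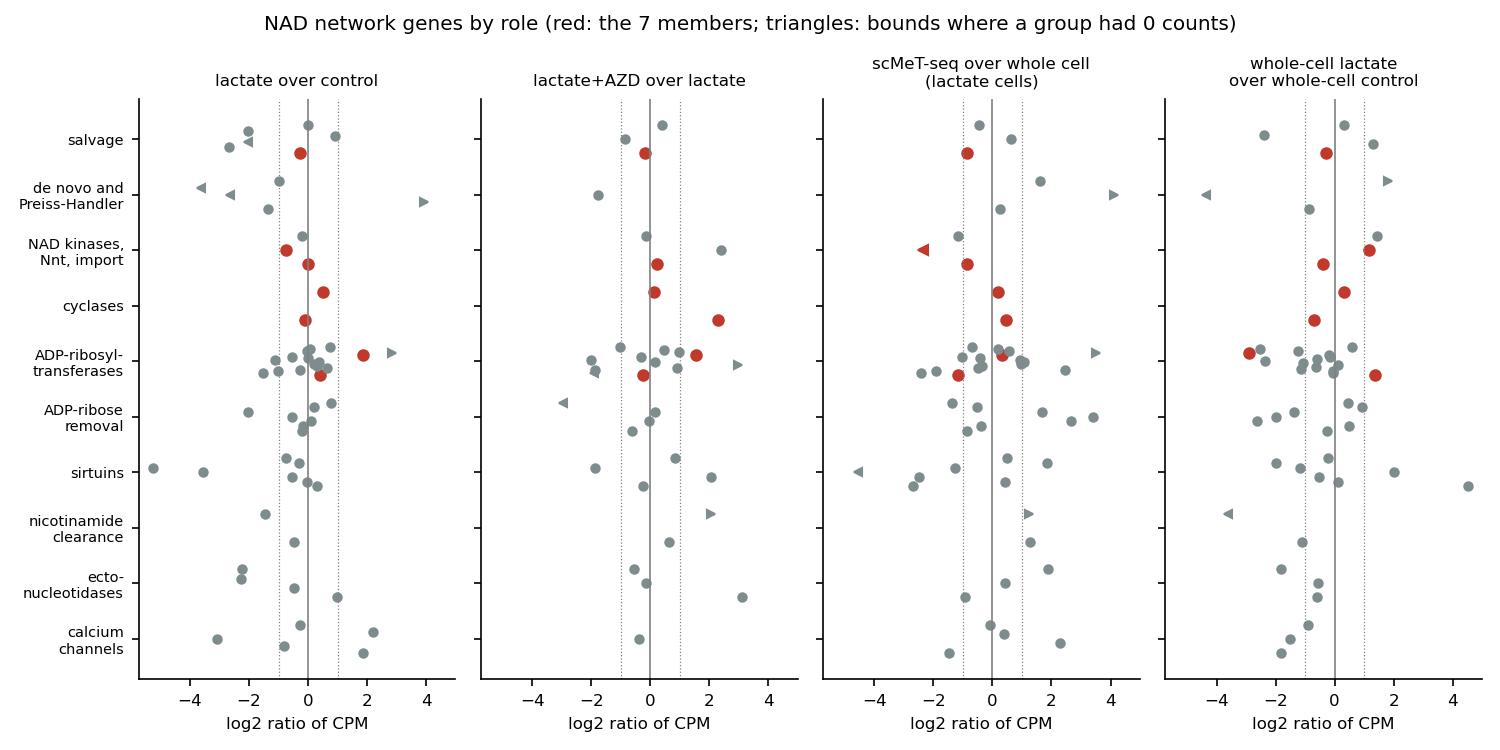
Log2 ratio of CPM for the measured genes of each NAD network list in the 4 comparisons. Each mark is 1 gene, red marks are the 7 members, triangles are bounds for genes with 0 counts in a group, and dotted lines mark 2-fold. In lactate over control 16 of 57 genes lie at or beyond the left dotted line and 5 at or beyond the right.

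Among 6735 genes with at least 100 counts and counts in at least 8 cells, those with the highest Spearman correlation with Cd38 were Psd4 (0.88), Grn (0.80) and Setd3 (0.80). For Bst1 they included Taldo1 (0.86) and Sod2 (0.83), and for Nampt they were Tnfaip8l2, Ctsa and Bst2 (0.83 each). Nadk was most like Ctdsp1 (0.85), AW112010 (0.80) and Lrrc25 (0.79), Parp1 like Mdm4 (0.93), Fn1 (0.88) and B4galt5 (0.85), and Parp14 like Gsap (0.88), Sowahc (0.85) and Slc7a2 (0.84). As the highest of 6735 values over 16 cells, these correlations are high through selection, and none was tested. Over the 13 cells without fibroblast markers the first gene named for each member had 0.88 (Psd4), 0.835 (Taldo1) and 0.70 (Tnfaip8l2). For Ctdsp1, Mdm4 and Gsap it was 0.84, 0.94 and 0.89. Nadk2, with counts in 4 cells, was not compared. Among the members themselves the highest value was that of Cd38 and Nadk (0.65), and Parp1 and Parp14 had 0.40 over 16 cells but 0.76 over the 13 cells without fibroblast markers. Nadk also had the highest correlation with the macrophage marker sum (0.73, and 0.67 over those 13 cells).

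In the AZD3965 experiment Cd38 and Parp14 were past 2-fold. Of the 6 members measured in lactate+AZD over lactate cells, 2 were at least 2-fold higher and 0 lower, against 24.9% and 15.6% of 8764 genes. Nadk2 was listed at 0 in all 10 cells, and the floor of 3 counts per group was 5.16 CPM for lactate+AZD and 4.16 CPM for lactate. Over all genes the median log2 ratio was 0.17, and TMM scaling, which moves each ratio by -0.16, brought it to 0.01. The cells of the groups overlapped for every measured member, as they did for all but 0.319% (higher) and 0.0571% (lower) of genes. In this table the count 2 occurred 6215 times and the count 1 only 1914 times, so intervals and floors hold only if each count is 1 read.

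Cd38 had 28.3, 441, 856, 85.6 and 122 CPM in the lactate+AZD cells T10, W10, W14, F8 and F9, against 69.1, 120, 0, 24.7 and 177 CPM in the lactate cells T11, T13, W5, W20 and F18. Thus 2 lactate+AZD cells lay above all others and the other 3 lay within the range of the lactate cells. Over the groups this came to 356 CPM with lactate+AZD (207 counts) and 72.1 CPM with lactate (52 counts), a log2 ratio of 2.30 (1.86 to 2.77). Without W10 and W14, an alternative chosen after the data had been seen, the ratio was -0.07. Both are among the cells titled W, and the labels do not say what the letters T, W and F stand for. Within T the ratio was -1.75 (1 against 2 cells), within W 5.57 (2 against 2) and within F -0.72 (2 against 1), so Cd38 was higher with lactate+AZD within W alone.

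Both of those cells held counts of B cell markers, which were at 0 in the other 8 cells. In W10 Cd79a, Cd79b and Fcmr had 20, 14 and 28 counts, and in W14 Cd79b, Ebf1 and Cd79a had 8, 5 and 2. Together 5 of 7 B cell markers were detected, with a marker sum of 434 CPM in W10 and 106 CPM in W14, while Ms4a1 and Pax5 were at 0. W14 also held the fibroblast markers given above, and without W14 alone the ratio of Cd38 was 1.44. The ratio of Cd38 without W10 alone was 2.18. The part of these marker counts in the Cd38 level was not tested.

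Bst1 overlapped between the groups, with 42.4 to 310 CPM with lactate+AZD (median 240 CPM) and 74.0 to 390 CPM with lactate (median 171 CPM). The summed CPM of 199.6 with lactate+AZD and 184.5 with lactate gave a log2 ratio of 0.11 (-0.26 to 0.48), which lies on the other side of 0 with TMM scaling (-0.05). W14, the highest cell for Cd38, was the lowest for Bst1. Cd38 took 94.5% of the pair per kb there, against a median of 25.1% over the 5 lactate+AZD cells and of 22.1% over the 5 lactate cells. Bst1 exceeded Cd38 per kb in 3 of 5 lactate+AZD and in 5 of 5 lactate cells.

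Nampt spanned 28.3 to 274 CPM with lactate+AZD and 52.5 to 387 CPM with lactate, at -0.17 (-0.60 to 0.25). W10 held 41 of its 81 lactate+AZD counts, and without W10 and W14 the ratio was -1.11. Within the letters it was -2.34 (T), 1.02 (W) and -1.76 (F). Nadk was absent from F8 and from the lactate cell T11 and reached 297 CPM (W14) with lactate+AZD and 247 CPM (W20) with lactate, at 0.22 (-0.19 to 0.64), and at -0.19 without W14.

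Parp1 was seen in 3 of 5 lactate+AZD and 4 of 5 lactate cells, between 63.7 and 70.7 CPM and between 50.3 and 88.4 CPM where present. Its log2 ratio was -0.26 (-1.05 to 0.52), -0.59 without W14 and 0.17 without W10. Parp14 had 28.3, 100.1, 49.5, 34.2 and 0 CPM in T10, W10, W14, F8 and F9, against 61.7 CPM in W20, 22.1 CPM in F18 and 0 in the other 3 lactate cells. The log2 ratio was 1.53 (0.51 to 2.64) from 28 and 12 counts. It was 0.86 without W10 and 3.75 without W20, and 0.31 without W10 and W14. Within the letters Parp14 was at 1.16 (W). The values for T and F fell below the minimum of 10 counts. Within T, 4 counts in T10 against 0 in T11 and T13 gave a bound of 1.66. Within F, 2 counts in F8 against 2 in F18 gave -0.72.

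**Figure D3:**
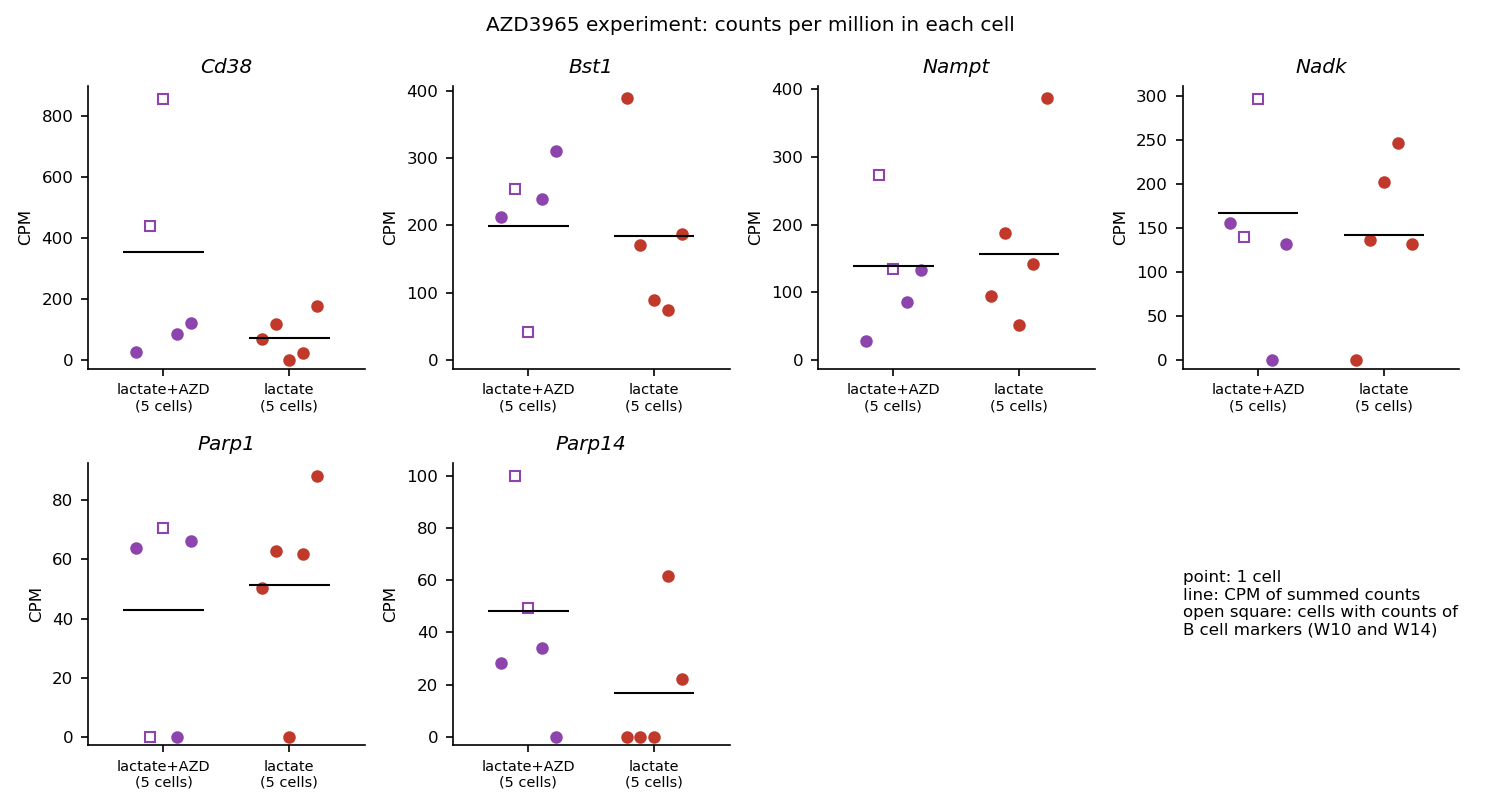
CPM of 6 members in single cells of the AZD3965 experiment, lactate+AZD (5 cells, left) and lactate (5 cells, right), Nadk2 being at 0 in all 10. Points are cells, lines mark the CPM of the summed counts and open squares are W10 and W14. For Cd38 these 2 cells stand at 441 and 856 CPM, and the other 8 at 177 CPM or below.

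Over the NAD network 35 of 67 genes were measured, of which 7 were at least 2-fold higher (20.0%, against 24.9% of all genes) and 7 lower (20.0%, against 15.6%). Of the 12 calls other than those of members, 8 ended when a single cell was left out. Nnt, the mitochondrial transhydrogenase that makes NADPH from NADH, was at 2.41 (1.19 to 3.84) from 30 and 7 counts. They lay in 4 of 5 lactate+AZD cells and 1 lactate cell, and without W14 the ratio was 2.23. Nnt had no row in the lactate experiment or the technique comparison, where the lists held 66 genes. Nt5e, the ecto-nucleotidase CD73, was at 3.12 (1.76 to 4.83) with 22 of its 35 counts in W10, and at 2.12 without it. Zc3hav1, a PARP family member that binds viral RNA, was lower at -1.03 (-1.51 to -0.57) and had counts in 5 of 5 cells of each group, but was at -0.91 without T11. Parp9 was at -2.01 (-3.57 to -0.72), with 23 of its 30 lactate counts in T13, and at -0.31 without it. Oard1, which removes ADP-ribose, had 0 against 29 counts and was at least 7.80-fold lower, a bound of -2.96 on the log2 scale that became -1.79 without T11.

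After scMeT-seq, Nampt, Nadk, Nadk2 and Parp1 had lower summed levels than in whole lactate-treated cells, and Cd38, Bst1 and Parp14 higher ones. Of the 7 members in scMeT-seq over whole-cell lactate libraries, 0 were at least 2-fold higher and 2 lower (Nadk2 and Parp1), against 21.7% and 20.6% of 9723 genes. No member was free of overlap between the groups, which held for 1.7% of genes on the higher and 3.08% on the lower side.

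Cd38 had 359, 117, 728 and 651 CPM in the scMeT-seq cells Lactic13, Lactic14, Lactic16 and Lactic17, against 372, 343 and 346 CPM in the whole cells Lactic5, Lactic6 and Lactic7. The whole cells lay close together and inside the wide range of the scMeT-seq cells. The log2 ratio was 0.45 (0.31 to 0.59), and 0.18 without Lactic16. Bst1 had 301, 252, 422 and 279 CPM, against 307, 191 and 335 CPM, at 0.18 (0.02 to 0.35), and at -0.04 without the whole cell Lactic6.

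Nampt had 210, 57.7, 11.6 and 251 CPM after scMeT-seq, against 196, 258 and 293 CPM in whole cells, a log2 ratio of -0.86 (-1.06 to -0.65). Its 2 low cells, Lactic14 and Lactic16, were apart in Cd38, Lactic14 being the lowest and Lactic16 the highest. Without Lactic16 the ratio was -0.48, and without Lactic17 it was -1.38. Nadk had 83.2, 241, 121 and 155 CPM, against 425, 222 and 190 CPM, at -0.88 (-1.08 to -0.68), and -0.50 without Lactic5.

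Parp1 was present in a single scMeT-seq cell, Lactic14 at 65.4 CPM, and in 2 whole cells, Lactic5 at 26.3 and Lactic6 at 66.9 CPM. Its log2 ratio was -1.15 (-1.82 to -0.51), and 0.28 without Lactic6. Without Lactic14 Parp1 had 0 counts after scMeT-seq, which gave a bound of -4.31. All 11 whole-cell counts of Nadk2 were in Lactic6, and with 0 counts after scMeT-seq it was at least 5.13-fold lower over the group. Parp14 was low on both sides, with 4.71, 3.85, 0 and 41.3 CPM after scMeT-seq and 0, 14.7 and 15.7 CPM in whole cells, at 0.31 (-0.55 to 1.21), and at -1.94 without Lactic17, which held 28 of its 33 counts after scMeT-seq.

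The whole cells also gave a second view of lactate against control, with 3 and 2 cells that were lysed whole, unlike those of the lactate experiment. The same 3 lactate cells serve as whole cells in the technique comparison. Of the 7 members, 2 were at least 2-fold higher (Parp1 and Nadk2) and 1 lower (Parp14), against 15.2% and 27.6% of 9732 genes, whose median was -0.20. TMM scaling moved each ratio by 0.19.

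Parp14 had 0, 14.7 and 15.7 CPM in whole lactate cells and 94.0 and 64.2 CPM in whole control cells, without overlap. The log2 ratio was -2.91 (-3.70 to -2.21) from 19 and 116 counts, and it stayed between -3.34 and -2.43 with 1 cell left out. This is the reverse of the sign in the lactate experiment, where Parp14 was at 1.85. The difference between the 2 experiments was not tested, since each group is 1 sample, and the handling of the cells and the experiment cannot be told apart.

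Cd38 did not overlap either, with 372, 343 and 346 CPM against 689 and 407 CPM, a log2 ratio of -0.71 (-0.87 to -0.56), and -0.21 without CTL4. In this comparison of 3 with 2 cells 2 of the 7 members were lower and 0 higher without overlap, against 15.4% and 5.99% of all genes. Bst1 (0.31, 0.11 to 0.52), Nampt (-0.30, -0.50 to -0.11) and Nadk (-0.41, -0.59 to -0.22) were within 2-fold, Bst1 being at -0.24 without CTL4. The positive ratios of Parp1 (1.36, 0.56 to 2.24) and Nadk2 (1.16, -0.60 to 3.26) both rested on Lactic6, and were -0.07 and -0.09 without it.

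**Figure D4:**
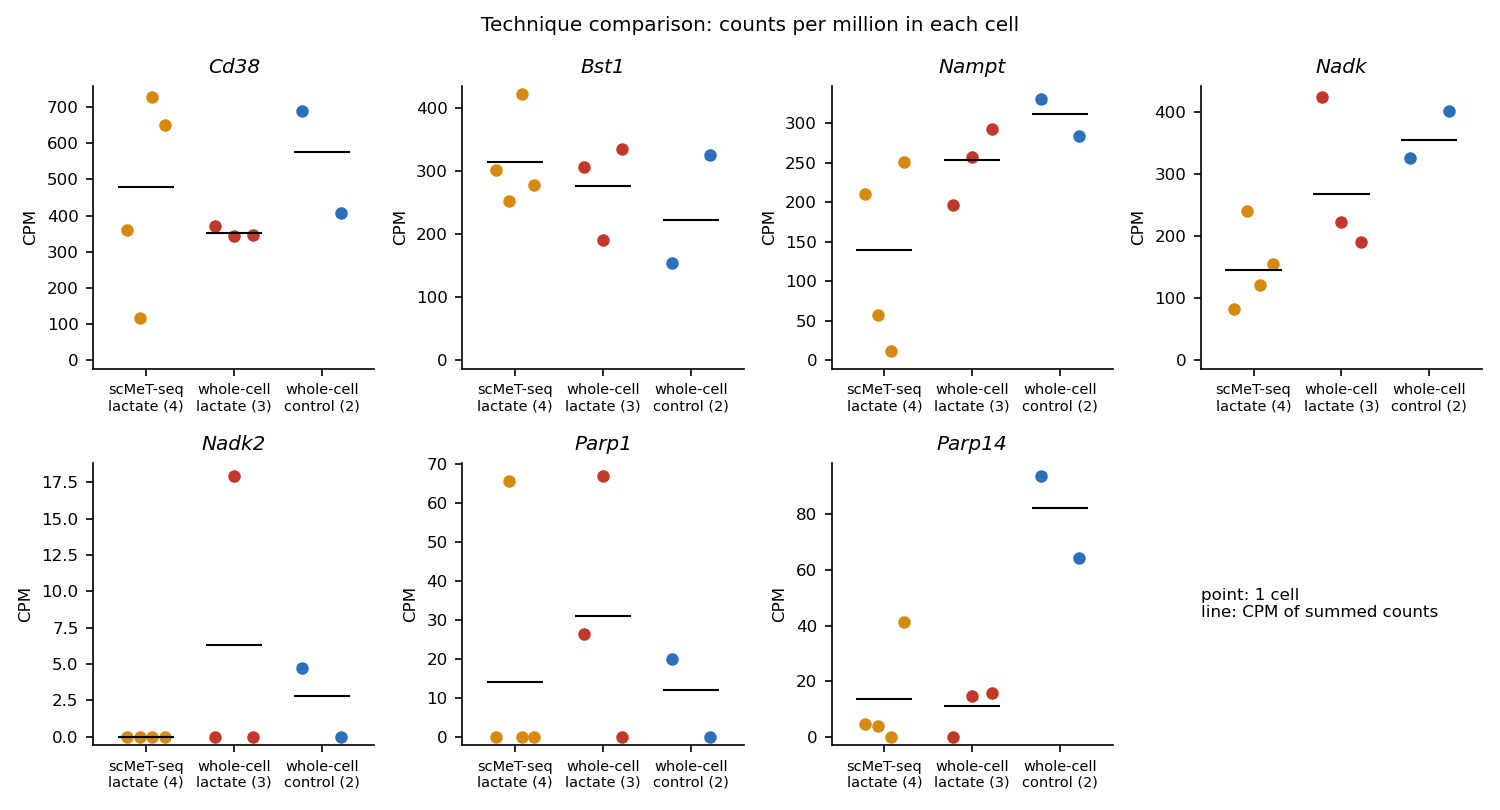
CPM of each member in the technique comparison, for scMeT-seq lactate (4 cells), whole-cell lactate (3 cells) and whole-cell control (2 cells), from left to right. Points are cells and lines mark the CPM of the summed counts. Parp14 stands at 94.0 and 64.2 CPM in whole control cells and at 15.7 CPM or below in whole lactate cells.

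In scMeT-seq over whole cells 13 of 50 measured NAD network genes were at least 2-fold higher (26.0%, against 21.7% of all genes) and 12 lower (24.0%, against 20.6%), shares near those of all genes. Of the 23 calls other than those of members, 14 ended when a single cell was left out. Among those that did not were Parp2 at -2.42 (-3.17 to -1.73) and Adprhl2, of the list for ADP-ribose removal, at 2.67 (1.925 to 3.52). Parp4 was at 2.45 (1.82 to 3.14), with 141 of 176 counts in Lactic13, and at 0.56 without it. Slc25a51, the mitochondrial NAD carrier, was at -1.18 (-1.56 to -0.81) with counts in every cell of both groups, and at -0.90 without Lactic7.

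In whole lactate over control cells 7 of 49 were higher (14.3%, against 15.2% of all genes) and 18 lower (36.7%, against 27.6%), and 17 of the 22 calls other than those of members ended without 1 cell. Slc25a51 was among the higher ones at 1.44 (0.96 to 1.94), with all 47 control counts in CTL4. Of the tankyrase genes, Tnks was at -1.26 (-1.80 to -0.73) but at -0.08 without CTL4, which held 75 of its 91 control counts, and Tnks2 was at -2.51 (-3.31 to -1.79) and at -1.96 without CTL8. Trpm2, higher with lactate in the lactate experiment, was at -1.81 (-2.38 to -1.27), with 103 of its 108 control counts in CTL4, and at 1.29 without it.

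Of 12 measured interferon-stimulated genes 0 were higher and 7 lower in whole lactate over control cells, against 15.2% and 27.6% of all genes, with a median of -1.37. Without CTL4, of 9 measured genes 3 were higher and 3 lower, with a median of 0.43. In scMeT-seq over whole cells, where the whole lactate cells are the same, 7 of 14 were higher and 0 lower, against 21.7% and 20.6%, with a median of 0.98. Without Lactic14 it was 3 higher and 1 lower of 10, with a median of 0.17.

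**Figure D5:**
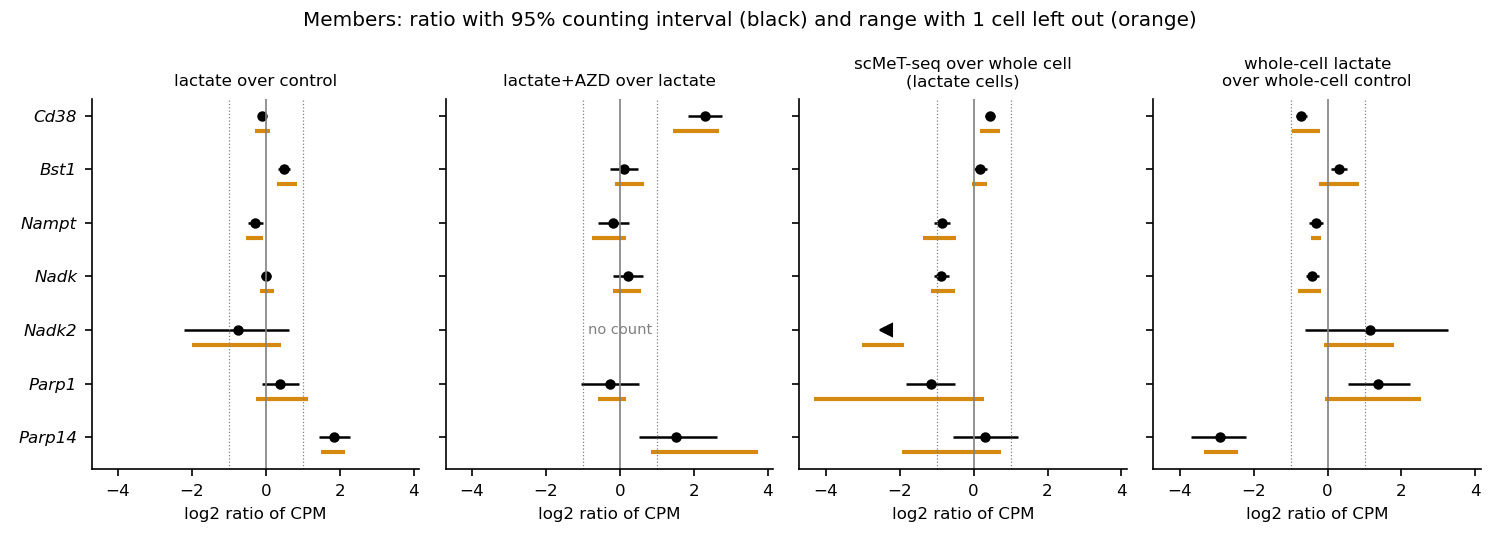
Log2 ratio of CPM of the 7 members in the 4 comparisons. Points are ratios of summed counts with 95% counting intervals (black), the triangle is a bound and orange bars span the ratios with 1 cell left out. Parp14 lies at 1.85 in lactate over control and at -2.91 in whole-cell lactate over control.

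Side by side over the 3 experiments, the summed level of Cd38 in lactate-treated cells was 439 CPM in the lactate experiment, 480 CPM after scMeT-seq in the technique comparison and 72.1 CPM in the AZD3965 experiment. For Bst1 these levels were 262, 314 and 184.5 CPM, for Nampt 129, 140 and 157 CPM, and for Nadk 298, 146 and 143 CPM. Parp1 had 27.3, 13.9 and 51.3 CPM and Parp14 74.7, 13.5 and 16.6 CPM. The tables were counted as separate sets, so these values were not compared by ratio.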

How the data were processed

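The deposited values are whole-number gene counts per cell, made by the authors from SMART-seq2 reads with fastp 0.20.0 for trimming, HISAT2 2.1.0 for alignment to mm10 and StringTie for counting. Whether strand was used is not given in the sources used here. Counts were used as deposited, from 3 separate tables. Totals ran from 58444 to 851417 counts per cell, and no pair of cells held identical values.

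Groups came from the sample titles. Since each library is 1 cell, counts were summed per group, divided by summed totals (CPM), and compared as log2 ratios with exact conditional binomial 95% intervals. Genes needed 10 counts over both groups, and 2-fold was the limit for a call. Against a group at 0, a floor of 3 counts over the group gave a bound. The columns of other samples numbered 0.

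The 7 members were named in every comparison. Candidates of each NAD network role were up to 4 genes past 2-fold with the largest summed counts, and otherwise those with the largest sums. Other network genes were picked from these candidates, and not all candidates or roles are named. For likeness, the 3 genes of highest Spearman correlation were named, except where a gene is not reported here. Members and lists were chosen with earlier results of these data known. Fibroblast, mesothelial and B cell marker lists served to describe cells. Alternatives were TMM scaling (edgeR 4.0.16, R 4.3.3), mean or median of per-cell CPM (median with 1 CPM added), other count minimums, and leaving out cells. The log2 ratio and interval code was tested on simulated data. Python 3.11.15 with numpy 2.4.6, pandas 2.3.3, scipy 1.17.1 and matplotlib 3.10.9 was used.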

Additional observations from a re-analysis of the deposited data

Results flagged for a closer look

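In 4 of 32 pairs of member and group with 4 to 10 cells, the highest cell stood apart from the others by Dixon's 95% criterion, which chance meets in about 1 of 20 groups of normally distributed values. These values are not so distributed, and a lone cell with counts among cells at 0 meets the criterion by construction. Bst1 reached 515 CPM in the lactate-treated cell Lactic27, with the next cell at 312 CPM. Nadk2 reached 14.3 CPM in Lactic34, with the next at 6.52 CPM. In the technique comparison Parp1 stood at 65.4 CPM in the scMeT-seq cell Lactic14 and at 0 in the other 3, and Parp14 at 41.3 CPM in Lactic17, with the next at 4.71 CPM.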

How the results depend on the processing

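Of 387 log2 ratios of members under an alternative, 51 had the other sign, of which 8 were among the 102 of members past 2-fold and 43 among the 285 of the others. The 8 are given here. Without W10 and W14, chosen after the data had been seen, Cd38 was at -0.065 in lactate+AZD over lactate. Within the title letters T and F, also chosen then, Cd38 was at -1.75 and -0.72. Parp14 within F was at -0.72, from 2 counts in F8 and 2 in F18, below the minimum of 10. Without W10 and W14 members past 2-fold numbered 0 higher and 1 lower (Nampt), and network genes 4 higher. With the median of per-cell CPM plus 1, Nadk2 was at -1.74 in whole-cell lactate over control. That setting gave 2 members higher in lactate over control, with 9 network genes higher and 8 lower, 1 member higher in lactate+AZD over lactate, and in whole-cell lactate over control 1 member higher and 2 lower, with 4 network genes higher. With the mean, 1 member was lower in scMeT-seq over whole cell. With all 5 whole cells it was 4 members, with 6 network genes higher. No share of all genes is given for the median, the mean, all 5 whole cells or cells left out. Counts under these settings were therefore not set against one. With at least 100 counts, members numbered 1 higher in lactate+AZD over lactate, 0 lower in scMeT-seq over whole cell and 0 higher in whole-cell lactate over control, and network genes 2 higher and 4 lower, 1 and 1, 3 and 4, and 1 and 6 in the order lactate over control, lactate+AZD over lactate, scMeT-seq over whole cell and whole-cell lactate over control. Of all genes with at least 100 counts, 9.35% were higher and 12.6% lower in lactate over control. In the same order, the other comparisons had 8.85% and 4.24%, 13.6% and 11.5%, and 8.48% and 16.8%. With 1 cell left out, members in these comparisons ran from 1 to 2 higher and 0 to 1 lower, 1 to 2 higher and 0 lower, 0 higher and 1 to 3 lower, and 0 to 2 higher and 1 lower. Network genes ran from 5 to 8 higher and 14 to 19 lower, 6 to 10 and 4 to 9, 10 to 15 and 10 to 16, and 5 to 10 and 14 to 21. Parp1 ran from -4.31 to 0.28 in scMeT-seq over whole cell and from -0.066 to 2.53 in whole-cell lactate over control. In the latter Nadk2 ran from -0.094 to 1.81. Each of these sign changes was without Lactic6. Of these values, -4.31, 2.53 and -0.094 are bounds set by the floor of 3 counts, as a group was then at 0. Causes were not tested beyond the cells left out. No paired analysis was possible because each group is 1 sample with no test, and the labels do not say that a shared number or letter marks a shared source. Over the lactate and control cells whose numbers occur in both groups, Parp14 was at 2.30. Depth limits Nadk2, Parp1 and Parp14 most, with 36, 311 and 496 counts over all 35 cells.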
